A study of Homo sapiens with 6 samples.

Results

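The genes described here are those of glycolysis and of the response to low oxygen, measured in U2OS cells, a human osteosarcoma line, with and without knockdown of TUSC4. The set holds 38 gene symbols, taken as every probe whose symbol on the array was one of them, which gave 67 of the array's 47231 probes. Of these probes 56 lay above the estimated background on at least 3 of the 6 arrays, and 35 of the 38 genes had such a probe, among 15300 genes tested. The genes fall into 17 glycolytic enzymes, 6 transporters and regulators of glycolysis, 14 targets of hypoxia-inducible factor (HIF) with roles outside glycolysis, and the factor gene HIF1A itself. KDM3A had no probe under that symbol, and the probes of PDK1 and EGLN3 were not above background on any of the 6 arrays.

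Glycolysis splits glucose into pyruvate in a chain of cytosolic reactions, and lactate dehydrogenase turns pyruvate into lactate when it is not burned in mitochondria. HIF is a pair of proteins whose alpha subunit is hydroxylated by oxygen-dependent enzymes and destroyed when oxygen is present. When oxygen is short the alpha subunit persists, enters the nucleus and switches on genes for glucose use, blood vessel growth, pH control and collagen processing. HIF1A is also known to be made in larger amounts when the growth kinase mTORC1 is active, and tumour cells often run glycolysis fast even in plentiful oxygen.

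The study compared 3 samples of U2OS cells with a control shRNA, labelled as parental in genotype, with 3 samples with stable knockdown of TUSC4 by shRNA. TUSC4, now named NPRL2, belongs to GATOR1, which holds back mTORC1 when amino acids run low. The shRNA sequences, whether a line is 1 clone, separate cultures and the oxygen level were not stated in the labels. Each p-value therefore reflects only how much these 6 samples vary, and that variation could be technical.

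The 6 arrays each had between 20378 and 21485 probes above the estimated background, and their number limits the precision. The log2 intensity of TUSC4 was 9.74, 9.76 and 9.79 with the control shRNA and 8.49, 8.50 and 8.75 with the TUSC4 shRNA, lower in all 3 (log2 fold change -1.18 ± 0.10, SE, adjusted p = 8.77e-07). Of the markers of a mesenchymal line, VIM, SPARC, COL1A1 and CDH2 were above background on 6 arrays and RUNX2 on 5, but FN1 and COL1A2 on 1 each. Among epithelial markers TACSTD1, KRT8 and KRT18 were above background on 6 arrays and CDH1 and KRT19 on 0. The blood markers CD3E and HBB were above background on 0 arrays and PTPRC on 1. All values below are log2 intensities after background correction with an offset of 50 and quantile normalization. Genes were called where the limma p, adjusted by Benjamini-Hochberg across all 15300 genes, was under 0.05, with the brightest probe standing for each gene.

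The non-glycolytic HIF targets rose more often than they fell, and the glycolytic enzymes changed in both directions, in equal number with the normalization used. Of 12 measured HIF targets 6 were higher, 1 was lower and 5 were not called, with a median log2 fold change of 0.36. CA9, among the 6, was above background only on knockdown arrays and so entered the test through the group where it is high. Without CA9 the count was 5 higher and 1 lower of 11, with a median of 0.26. Of 17 glycolytic enzymes 4 were higher, 4 were lower and 9 were not called, with a median of -0.05. Over all genes tested the median was 0.00, 27% were called in either direction, 13.3% as higher and 13.7% as lower. The corresponding shares were 50% higher and 8.33% lower for the HIF targets and 23.5% in each direction for the enzymes. Transporters and regulators split as well, with 2 higher, 2 lower and 1 not called of 5. Array by array, the median HIF target lay 0.32, 0.53 and 0.19 above its control mean in the 3 knockdown samples, or 0.27, 0.52 and 0.01 without CA9, and the median enzyme lay at 0.02, 0.01 and -0.10. The difference between the classes is given as a description, with no test, and the members were chosen with earlier results of these data known. Over the 35 measured genes the groups did not overlap for 22, of which 13 were higher and 9 lower, against 40.5% of all genes, 20% higher and 20.5% lower. At the level of probes 31 of the 56 kept were called, 21 higher and 10 lower, against 24.3% of all kept probes.

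**Figure D1:**
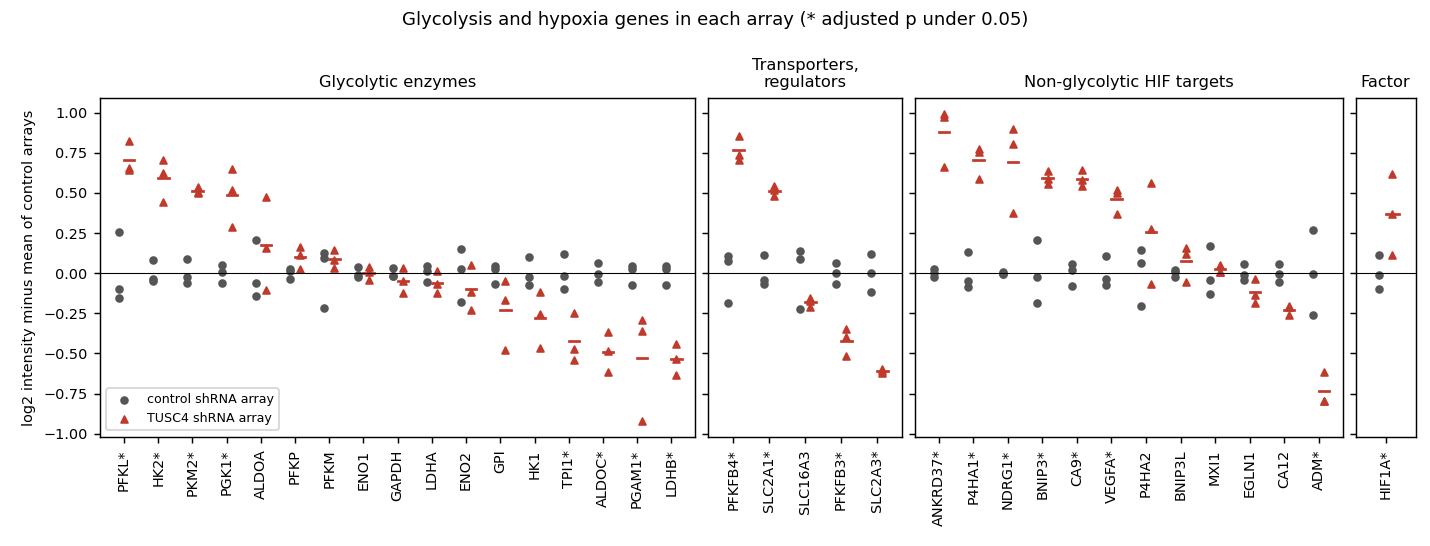
Log2 intensity of each measured gene in each array, minus the mean of the 3 control arrays, by class. Grey circles are control shRNA arrays, red triangles TUSC4 shRNA arrays, red bars the knockdown mean, and an asterisk marks an adjusted p under 0.05. The HIF targets run from ANKRD37 at 0.88 down to ADM at -0.73, while the enzymes range from PFKL at 0.71 to LDHB at -0.54 with 9 uncalled genes between them.

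ANKRD37, a small ankyrin repeat gene strongly induced by HIF, had the largest rise of the set with the offset and normalization used, but not with the authors' values, where it was 0.57 against 0.65 for PFKFB4, 0.64 for P4HA1 and 0.63 for NDRG1. Without background correction it was 0.66, against 0.68 for PFKFB4. The 50 measured genes nearest to ANKRD37 had a median log2 fold change of 0.25, which leaves 0.63. Relative to their own neighbours several genes stood higher, among them PFKFB4 at 0.78 and PFKL at 0.77. The log2 intensity of ANKRD37 was 6.69, 6.64 and 6.67 with the control shRNA and 7.66, 7.33 and 7.64 with the TUSC4 shRNA. This was a fold of 1.84 (log2 0.88 ± 0.11, SE, adjusted p = 2.47e-05), and the groups lay far apart. P4HA1 encodes the catalytic subunit of the prolyl hydroxylase that lets collagen fold into its triple helix. Its values were 8.83, 8.87 and 9.05 in the control samples against 9.69, 9.50 and 9.67 in the knockdown samples. Every knockdown sample was higher, by a log2 fold change of 0.70 ± 0.10 (adjusted p = 0.000114). A second, dimmer P4HA1 probe gave 0.19 ± 0.11, which was not called when every kept probe was tested (adjusted p = 0.248).

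NDRG1, a stress-responsive gene with roles in differentiation and lipid handling, read 8.90, 8.91 and 8.90 in the control samples and 9.80, 9.71 and 9.28 after knockdown. The third knockdown sample was the lowest of its group, and the log2 fold change was 0.69 ± 0.12 (adjusted p = 0.000590). For BNIP3, a mitochondrial protein that marks mitochondria for autophagy, the control values were 9.61, 9.84 and 9.45 and the knockdown values 10.27, 10.22 and 10.19. The groups did not overlap and differed by 0.59 ± 0.11 (adjusted p = 0.000735). The call was lost without normalization (0.33, adjusted p = 0.0963). Its close relative BNIP3L was not called by its brightest probe (0.08 ± 0.10, adjusted p = 0.607), but its other probe was higher by 0.39 ± 0.12 (adjusted p = 0.0256 over all kept probes).

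CA9 encodes carbonic anhydrase 9, a cell-surface enzyme that takes part in pH control and serves as a standard marker of hypoxia. Its probe cleared background on 0 control arrays and on all 3 knockdown arrays. The values were 6.14, 6.18 and 6.04 against 6.70, 6.66 and 6.76, and the rise was at least 1.32-fold given this correction and offset (adjusted p = 0.000288, and 0.000115 with no filter on dim probes). Its deposited signal averaged 119 in the control samples and 145 after knockdown. VEGFA, the main growth factor for blood vessels, had 7.02, 6.84 and 6.88 in the control samples and 7.28, 7.43 and 7.41 in the knockdown samples. That is a log2 fold change of 0.46 ± 0.10 (adjusted p = 0.00240), and a second VEGFA probe was higher by 0.34 ± 0.10. Median scaling between arrays ended the VEGFA call, at 0.30 (adjusted p = 0.0706), and so did leaving out the normalization, at 0.27 (adjusted p = 0.162).

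ADM, which encodes the vessel-relaxing peptide adrenomedullin and is another well-known HIF target, went the other way. Its control values were 8.21, 8.74 and 8.47 and its knockdown values 7.86, 7.68 and 7.68. All 3 knockdown samples lay below the controls, with a log2 fold change of -0.73 ± 0.12 (adjusted p = 0.000412). The HIF targets that were not called ranged from -0.23 for CA12, a second carbonic anhydrase, to 0.26 for P4HA2, the sister subunit of P4HA1. Between these lay EGLN1, the main oxygen-sensing prolyl hydroxylase that marks HIF for destruction (-0.12), MXI1, a repressor that opposes MYC (0.03), and BNIP3L. A second P4HA2 probe was higher by 0.34 ± 0.10 (adjusted p = 0.0270 over all kept probes). The second CA12 probe was at -0.002 ± 0.095 (adjusted p = 0.991 over all kept probes). KDM3A, a histone demethylase, is listed on the array under its older symbol JMJD1A and so fell outside the symbol match. JMJD1A had control values of 7.60, 7.48 and 7.59, knockdown values of 8.13, 7.83 and 8.01, and a log2 fold change of 0.43 ± 0.10 (adjusted p = 0.00511).

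HIF1A, the oxygen-labile subunit, is controlled mainly through its protein, which was not measured here. Its transcript read 9.72, 9.51 and 9.60 in the control samples and 10.23, 9.72 and 9.98 in the knockdown samples. The lowest knockdown sample equalled the highest control sample to 2 decimals, and the log2 fold change was 0.37 ± 0.12 (adjusted p = 0.0340). Its other 2 probes gave 0.36 ± 0.11 and 0.45 ± 0.12 (adjusted p = 0.0279 and 0.0124 over all kept probes). The HIF1A call was lost in 8 of 15 alternative fits, among them median scaling (0.14), no normalization (0.10), the authors' values, an offset of 16, and the removal of any one of shCtrl replicates 2 and 3 and shTUSC4 replicates 1 and 3. Over those 15 fits its adjusted p ranged from 0.00830 to 0.717.

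HIF binds DNA at a short core that reads ACGTG or GCGTG. Both were searched on both strands of the 250 bases before each start in RefSeq's promoter table (GRCh38.p14), where 34 of the 38 genes had an entry. At any listed start, 28 of these 34 genes held at least 1 match (82.4%), against 47.4% of the table's 27305 genes. For ACGTG alone the count was 20 of 34 (58.8%), against 21.7% of all genes. ACGTG is also the inner part of the palindrome CACGTG, which other factors bind and which counts as a match on each strand, and 8 of the 34 genes held it against 7.73% of all genes. By call, matches were found in 9 of the 11 genes called higher, in 4 of the 6 called lower and in 13 of the 14 not called. Genes with several listed starts had more places for a match, HK1 and PFKM with 7 starts each, and no correction was made for this. The set also holds genes listed because they are HIF targets, so its shares partly reflect how it was chosen. A match is a run of letters, not a measured binding site.

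The sequences before the start of 7 genes with 1 listed start each are shown to let the rising HIF targets be set beside enzymes that rose, fell or were not called. The first 4 are the rising HIF targets with an entry and 1 start, PGK1 is an enzyme that rose, ALDOC one that fell and GAPDH one that was not called. Each runs 5′ to 3′ on the gene's own strand and ends at the base before the start, with matches to ACGTG or GCGTG on either strand in capitals, where a match on the opposite strand reads CACGT or CACGC. They lie at chr4:185396591-185396840 (+ strand, ANKRD37), chr10:73096867-73097116 (- strand, P4HA1), chr10:131981924-131982173 (- strand, BNIP3), chr9:35673678-35673927 (+ strand, CA9), chrX:78103998-78104247 (+ strand, PGK1), chr17:28576896-28577145 (- strand, ALDOC) and chr12:6535014-6535263 (+ strand, GAPDH) in GRCh38.p14.
ANKRD37: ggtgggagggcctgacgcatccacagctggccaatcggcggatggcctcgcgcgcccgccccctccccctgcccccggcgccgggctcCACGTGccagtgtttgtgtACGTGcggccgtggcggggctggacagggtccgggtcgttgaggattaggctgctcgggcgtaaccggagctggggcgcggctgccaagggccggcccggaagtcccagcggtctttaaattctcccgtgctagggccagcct
P4HA1: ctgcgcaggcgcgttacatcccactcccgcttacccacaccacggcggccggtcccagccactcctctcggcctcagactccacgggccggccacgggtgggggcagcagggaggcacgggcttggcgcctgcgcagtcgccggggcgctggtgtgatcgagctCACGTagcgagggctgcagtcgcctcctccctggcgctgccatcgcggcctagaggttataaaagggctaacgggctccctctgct
BNIP3: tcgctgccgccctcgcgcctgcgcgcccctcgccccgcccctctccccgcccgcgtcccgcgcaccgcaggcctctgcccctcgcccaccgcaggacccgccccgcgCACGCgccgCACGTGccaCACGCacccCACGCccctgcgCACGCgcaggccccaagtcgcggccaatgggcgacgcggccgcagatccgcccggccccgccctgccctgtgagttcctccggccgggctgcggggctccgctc
CA9: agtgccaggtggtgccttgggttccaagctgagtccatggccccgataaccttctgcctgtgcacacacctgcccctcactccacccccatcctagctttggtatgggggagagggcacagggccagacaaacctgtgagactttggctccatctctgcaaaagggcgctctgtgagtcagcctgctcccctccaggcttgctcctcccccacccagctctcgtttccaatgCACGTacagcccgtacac
PGK1: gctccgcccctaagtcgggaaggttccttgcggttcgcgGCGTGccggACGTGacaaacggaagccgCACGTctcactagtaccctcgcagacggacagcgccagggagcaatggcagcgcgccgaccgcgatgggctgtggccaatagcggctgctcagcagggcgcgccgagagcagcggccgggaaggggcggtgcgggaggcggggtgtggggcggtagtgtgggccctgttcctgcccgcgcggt
ALDOC: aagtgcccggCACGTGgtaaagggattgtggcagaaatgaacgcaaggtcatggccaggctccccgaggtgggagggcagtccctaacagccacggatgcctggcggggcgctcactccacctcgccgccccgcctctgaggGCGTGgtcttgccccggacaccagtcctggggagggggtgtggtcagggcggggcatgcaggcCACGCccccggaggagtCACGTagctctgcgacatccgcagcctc
GAPDH: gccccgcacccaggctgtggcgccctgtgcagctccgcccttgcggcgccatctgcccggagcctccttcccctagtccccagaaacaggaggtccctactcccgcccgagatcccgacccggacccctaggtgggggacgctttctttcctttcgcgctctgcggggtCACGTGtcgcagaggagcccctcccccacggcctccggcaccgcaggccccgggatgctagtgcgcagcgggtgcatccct

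ANKRD37 held 3 ACGTG matches, of which the pair starting 162 and 161 bases before the start form a CACGTG palindrome and the third begins 143 bases before it. BNIP3 held 2 ACGTG and 4 GCGTG matches, packed between 143 and 100 bases before the start. P4HA1 and CA9 held 1 ACGTG match each, on the opposite strand, and that of CA9 began 18 bases before the start. PGK1, which rose, had 2 ACGTG and 1 GCGTG. ALDOC, which fell, had 3 ACGTG and 2 GCGTG. GAPDH, which was not called, had 2 ACGTG matches that form 1 palindrome. The enzymes shown are examples and do not stand for their call groups. Of other called enzymes with 1 listed start, PGAM1 and LDHB, which fell, and PKM2, which rose, held 0 matches. PFKL, which rose, held 1. A match at any start was found in 3 of 4 enzymes called higher, 2 of 4 called lower and 9 of 9 not called. For HIF targets called higher it was 4 of 4 with an entry.

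The glycolytic enzymes that rose were PFKL, HK2, PKM2 and PGK1. PFKL is the liver-type form of phosphofructokinase, the committing enzyme of glycolysis. Its log2 intensity was 6.91, 6.85 and 7.26 in the control samples and 7.65, 7.83 and 7.66 after knockdown, apart in every sample and higher by 0.71 ± 0.12 (adjusted p = 0.000334). HK2, the inducible hexokinase that traps glucose in the cell, had 7.24, 7.12 and 7.11 against 7.86, 7.60 and 7.78. The difference was 0.59 ± 0.10 (adjusted p = 0.000466), and a second HK2 probe gave 0.39 ± 0.11. It missed the threshold without normalization (0.37, adjusted p = 0.0652).

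PGK1 makes the first ATP that glycolysis returns. Its values were 12.07, 12.18 and 12.14 in the control samples and 12.78, 12.65 and 12.42 in the knockdown samples, with no overlap and a log2 fold change of 0.48 ± 0.11 (adjusted p = 0.00311). The other PGK1 probe rose by 0.71 ± 0.10. PKM2 is the array's symbol for the pyruvate kinase gene PKM, which makes the last ATP, and its probes were not assigned to splice forms. It read 10.34, 10.30 and 10.45 against 10.87, 10.90 and 10.86, tightly grouped on both sides, with a log2 fold change of 0.51 ± 0.09 (adjusted p = 0.000790). The other 2 PKM2 probes gave 0.46 and 0.31, the second not called (adjusted p = 0.117). With median scaling the PKM2 call was lost (0.31, adjusted p = 0.0662), as it was without normalization (0.27, adjusted p = 0.156).

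The enzymes that fell were LDHB, PGAM1, ALDOC and TPI1. LDHB is the lactate dehydrogenase subunit that favours turning lactate back to pyruvate. It read 12.99, 13.09 and 13.11 in the control samples and 12.43, 12.53 and 12.62 after knockdown, lower in each by a clear margin (log2 fold change -0.54 ± 0.10, adjusted p = 0.000720). PGAM1, the phosphoglycerate mutase, had 11.15, 11.25 and 11.27 against 10.93, 10.86 and 10.30. The third knockdown sample was the lowest, and the log2 fold change was -0.53 ± 0.14 (adjusted p = 0.00886), with -0.39 ± 0.12 from the other probe. PGAM4, a near-identical copy of PGAM1, had -0.47 ± 0.10, and which copy the probes report is uncertain.

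ALDOC, the brain-type aldolase, had 8.28, 8.23 and 8.35 in the control samples and 7.92, 7.80 and 7.67 in the knockdown samples, without overlap (-0.49 ± 0.10, adjusted p = 0.00175). TPI1 encodes the triosephosphate isomerase that makes both products of split glucose usable. Its values were 12.98, 12.90 and 13.12 against 12.46, 12.75 and 12.53, again without overlap (-0.42 ± 0.11, adjusted p = 0.00716), and the second TPI1 probe gave -0.46 ± 0.09. LDHB and TPI1 lie on chromosome 12 among genes that were themselves lower. The 50 measured genes nearest to LDHB had a median log2 fold change of -0.24 and those nearest to TPI1 -0.17, which leaves -0.30 and -0.25 relative to these neighbours. GAPDH and ENO2, which were not called, also lie on chromosome 12. Their neighbours had medians of -0.21 and -0.19, which leaves 0.17 and 0.09. The part of neighbouring genes in these values was not tested further.

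The 9 enzymes that were not called ranged from HK1 at -0.28 ± 0.11 (adjusted p = 0.0615) to ALDOA at 0.17 ± 0.14. HK1 is the constitutive hexokinase, and its knockdown values of 11.47, 11.61 and 11.26 all lay below the control values of 11.83, 11.65 and 11.70. It was called lower in 5 of 15 alternative fits, among them median scaling (-0.43, adjusted p = 0.0147) and the authors' values (-0.31, adjusted p = 0.0410). GPI, the isomerase after hexokinase, was at -0.23 ± 0.11, and the neuronal enolase ENO2 at -0.10 ± 0.11. Both became calls, as lower, when arrays were scaled by their medians (-0.47 and -0.34) or left unnormalized (-0.51 and -0.38). The other forms of phosphofructokinase, PFKP of platelets and PFKM of muscle, were at 0.10 ± 0.09 and 0.08 ± 0.11. The abundant enzymes ENO1, GAPDH and LDHA, the last the subunit that favours making lactate and a classical HIF target, were at 0.00 ± 0.09, -0.05 ± 0.09 and -0.06 ± 0.09. Their signals averaged 64.5%, 72.2% and 57.3% of the brightest probe on the array, and whether their differences were compressed by brightness was not tested. A second GAPDH probe was lower, at -0.30 ± 0.10 (adjusted p = 0.0328 over all kept probes), and the third gave -0.18. A second bright LDHA probe gave -0.16 ± 0.10 and a dim one 0.23 ± 0.10. Neither was called (adjusted p = 0.280 and 0.0915 over all kept probes). Many of these enzymes have near-identical pseudogene copies that can share a probe.

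**Figure D2:**
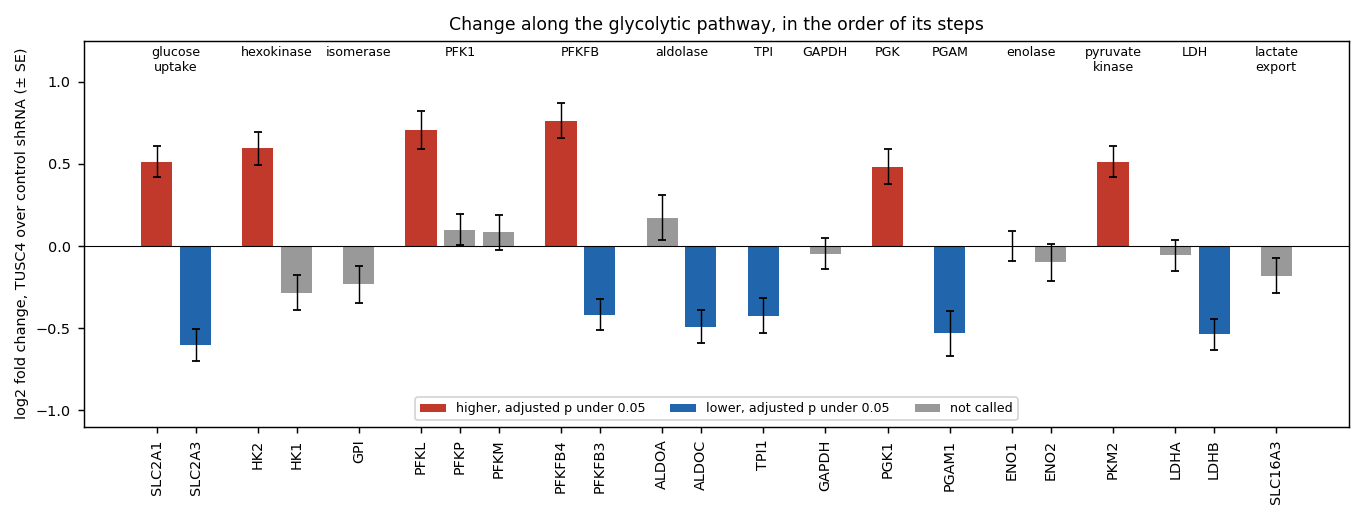
Log2 fold change (TUSC4 over control shRNA, bars from 0, error bars ± SE of the limma fit) of each glycolytic transporter, enzyme and regulator in pathway order. Red and blue bars passed an adjusted p under 0.05 and grey bars did not. Higher genes such as PFKL at 0.71 and PGK1 at 0.48 alternate along the chain with lower ones such as TPI1 at -0.42 and PGAM1 at -0.53.

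Among transporters and regulators the members of each pair diverged. PFKFB4 and PFKFB3 both make and break fructose 2,6-bisphosphate, the strongest activator of phosphofructokinase, and both are known HIF targets. PFKFB4 had 8.23, 7.94 and 8.20 in the control samples and 8.86, 8.98 and 8.83 in the knockdown samples, a rise of 0.76 ± 0.10 (adjusted p = 7.56e-05). PFKFB3 read 9.41, 9.34 and 9.47 against 9.01, 9.06 and 8.89, a log2 fold change of -0.42 ± 0.10 (adjusted p = 0.00421). Both pairs of groups lay apart. A dimmer PFKFB3 probe gave 0.08 ± 0.11, and with the mean of its probes the PFKFB3 call was lost (-0.17, adjusted p = 0.191).

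SLC2A1 (GLUT1) is the widely expressed glucose transporter and SLC2A3 (GLUT3) the high-affinity one typical of neurons. SLC2A1 had 9.72, 9.54 and 9.57 in the control samples and 10.09, 10.13 and 10.15 after knockdown, higher by 0.51 ± 0.10 (adjusted p = 0.000899). SLC2A3 had 9.54, 9.42 and 9.66 against 8.94, 8.93 and 8.92, with a log2 fold change of -0.61 ± 0.10 (adjusted p = 0.000298). The 2 transporters thus moved in opposite directions, each with its groups apart. The SLC2A1 call did not survive median scaling (0.29, adjusted p = 0.115) or the lack of normalization (0.25, adjusted p = 0.228). The 50 genes nearest to SLC2A1 had a median of 0.19, which leaves 0.33. Those nearest to SLC2A3, on chromosome 12, had a median of -0.15, which leaves -0.45. SLC16A3 (MCT4), the main lactate exporter of glycolytic cells, was at -0.18 ± 0.11 and was not called.

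Related genes were also set against each other within each array, as a description with no test. The 11 pairs were chosen by family after the values had been seen, and several set a called gene against an uncalled relative. Each was written with the gene of the higher log2 fold change first, so every difference is positive by that choice. Quantile normalization moves genes by their intensity, so these ratios still depend on it. The ratio of PFKFB4 to PFKFB3 was higher in the knockdown by 1.18 on the log2 scale, by 1.19 with median scaling and by 1.03 with the authors' values. For SLC2A1 over SLC2A3 these differences were 1.12, 1.13 and 1.02, and for HK2 over HK1 they were 0.88, 0.83 and 0.73. ALDOA over ALDOC differed by 0.66 (0.72 and 0.57), BNIP3 over BNIP3L by 0.52 (0.53 and 0.48) and LDHA over LDHB by 0.48 (0.54 and 0.56), with the median scaling and authors' values in brackets. PFKL moved more with the processing, at 0.62 over PFKM and 0.60 over PFKP, against 0.69 and 0.68 with median scaling and 0.42 and 0.40 with the authors' values. ENO1 over ENO2 was at 0.10, and at 0.35 with median scaling. P4HA1 over P4HA2 (0.45), ENO1 over ENO2 and PFKP over PFKM (0.02) overlapped between groups.

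**Figure D3:**
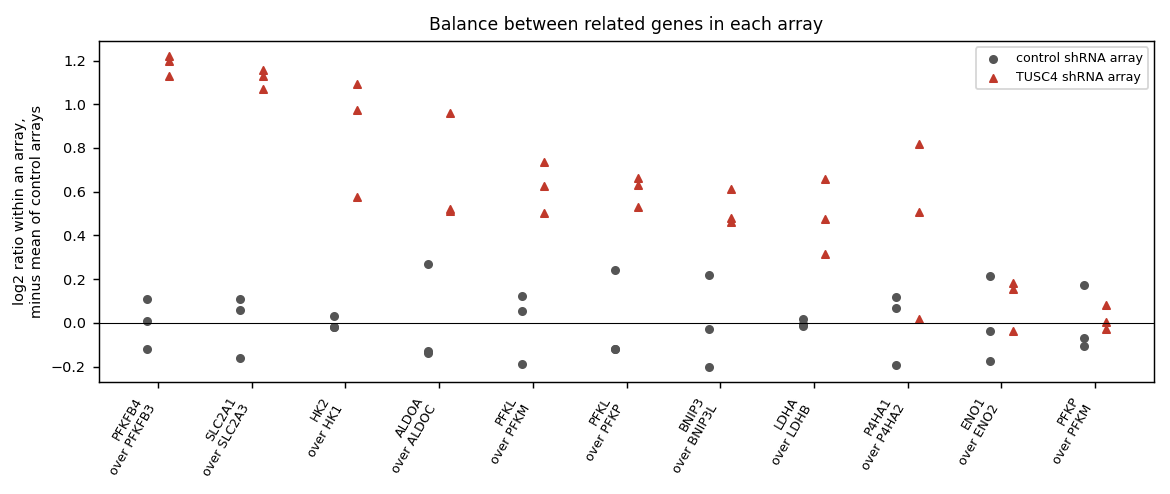
Log2 ratio between 2 related genes within each array, minus the mean of the 3 control arrays, for 11 pairs chosen after their values were seen. Grey circles are control shRNA arrays and red triangles TUSC4 shRNA arrays. The gene with the higher log2 fold change comes first in each pair, so all differences are positive by that choice. The mean difference runs from 1.18 for PFKFB4 over PFKFB3 to 0.02 for PFKP over PFKM.

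How far these calls depend on scaling was checked across the set. Of the 20 called genes, 12 passed in all 15 alternative fits, CA9 passed in the 14 that held it, and 7 were lost in at least 1, namely HK2, PKM2, SLC2A1, PFKFB3, VEGFA, BNIP3 and HIF1A. Of the 15 genes not called, 6 were called in at least 1 fit, namely HK1, GPI, ENO2, SLC16A3 and CA12 as lower and P4HA2 as higher. The median of all genes shifted to -0.12 under median scaling and to -0.16 with no normalization, and under each the log2 fold change of all 20 called genes was lower. With median scaling 5 HIF targets were higher and 2 lower, and 3 enzymes were higher and 7 lower. Over all 15300 genes median scaling gave 619 higher and 3457 lower, so lower calls were the more common ones throughout. Without normalization the counts were 4 and 2 for HIF targets and 2 and 7 for enzymes. Over all genes the calls without normalization were also mostly lower, with their counts given in the last section. The median of the HIF targets became 0.17 and 0.13 under these scalings, and that of the enzymes -0.15 and -0.19. Relative to the median of all genes the HIF targets stayed at 0.28 under both, against 0.36 with quantile normalization, and the enzymes at -0.03 against -0.05. In the deposited signal, before any normalization, the groups of all 7 genes called lower lay apart, as did those of 9 of the 13 called higher. Over all genes called lower this share was 98.6%, and over all called higher 28.5%. Of all genes tested 34.5% lay apart as lower in the deposited signal and 3.95% as higher. The 4 called higher whose deposited signals overlapped were HK2, SLC2A1, VEGFA and HIF1A. Of the genes not called, ENO2, GPI, HK1, BNIP3L, EGLN1, CA12 and SLC16A3 also lay apart as lower in the deposited signal, and the others overlapped.

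**Figure D4:**
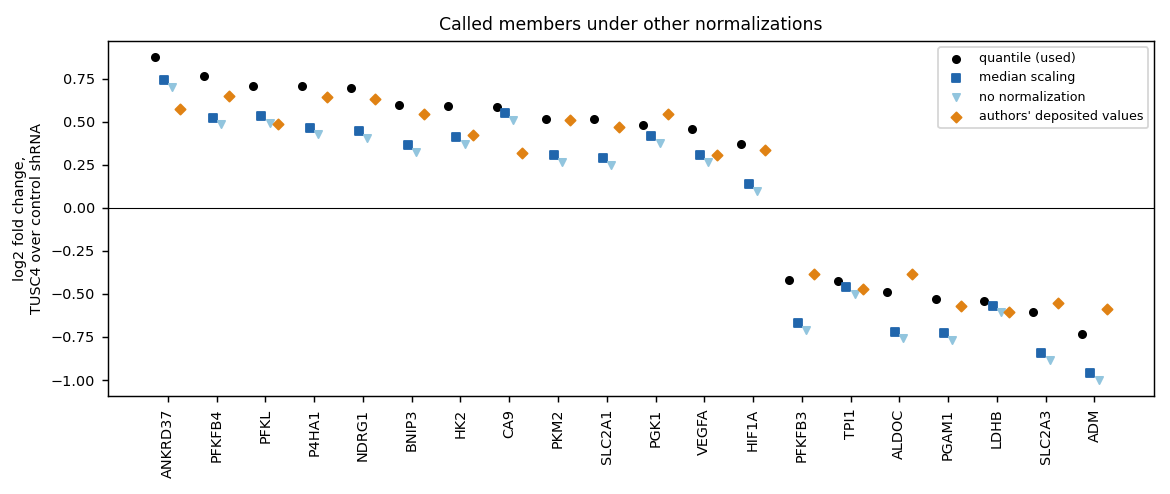
Log2 fold change (TUSC4 over control shRNA) of the 20 called genes with quantile normalization, median scaling, no normalization and the authors' deposited log2 values. All 20 keep their direction in each of these. HIF1A falls from 0.37 to 0.10 without normalization, while ANKRD37 stays between 0.57 and 0.88.

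A wider set of 98 pathway genes, of which 80 were measured, changed in both directions. Of these 16 were higher, 15 lower and 49 not called, with a median log2 fold change of 0.04. The shares were 20% higher and 18.8% lower, against 13.3% and 13.7% of all genes. Among 30 further hypoxia-responsive genes 7 were higher (23.3%) and 5 lower (16.7%), with a median of 0.14. FUT11, among the 5 lower, was above background only on control arrays and so entered the test through the group where it is high. Without FUT11 the count was 7 higher and 4 lower of 29, with a median of 0.14. The higher ones included DDIT4, an mTORC1 inhibitor that other stresses also induce (1.52 ± 0.11, adjusted p = 1.54e-07), ERRFI1, a brake on the EGF receptor (0.67 ± 0.09), and the lipid droplet gene C7orf68, now HILPDA (0.38 ± 0.09). The lower ones included LOX and PLOD2, which cross-link and hydroxylate collagen (-0.63 ± 0.10 and -0.45 ± 0.09), and INSIG2, which retains the sterol regulators in the endoplasmic reticulum (-0.46 ± 0.10).

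Genes that control HIF itself were called at 23.1%, no more often than the 27% of all genes. Of 13 measured, 3 were lower (23.1%) and 0 higher by limma, against 13.7% lower and 13.3% higher of all genes. At an unadjusted p under 0.05, 3 were lower and 0 higher, against 2879 and 2887 of all 15300 genes. Whether the direction of so few genes differs from that of all genes was not tested. CITED2, which competes with HIF for its coactivators, had 10.40, 10.44 and 10.23 in the control samples and 9.53, 9.57 and 9.53 in the knockdown samples, a log2 fold change of -0.81 ± 0.10 (adjusted p = 2.19e-05). HIF1AN, the asparaginyl hydroxylase that blocks HIF from binding coactivators, had 7.40, 7.44 and 7.59 against 6.95, 6.93 and 6.97 (-0.53 ± 0.10, adjusted p = 0.000748). Neither gene overlapped between groups. EPAS1, the alternative alpha subunit HIF-2 alpha, was at -0.29 ± 0.10 (adjusted p = 0.0362).

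Further genes listed under glycolysis and its side branches changed both ways, 8 higher (32%) and 5 lower (20%) of 25, with a median of 0.10. The 8 higher include PGAM5, which is not a glycolytic enzyme. The 5 lower include PGAM4, whose probe may report PGAM1 and so count its fall again. PCK2, mitochondrial phosphoenolpyruvate carboxykinase, was higher by 0.74 ± 0.11 (adjusted p = 0.000156), the intracellular glucose transporter SLC2A8 by 0.47 ± 0.11 and the mitochondrial phosphatase PGAM5 by 0.49 ± 0.12. Transporters SLC2A12 and SLC2A6 were lower (-0.82 ± 0.10 and -0.78 ± 0.10), as was PGM2, a phosphopentomutase (-0.57 ± 0.12). Of 12 genes that govern the entry of pyruvate into mitochondria 1 was higher and 2 were lower, a share of 25% against 27% of all genes. The higher one, PDK4, a kinase that shuts off pyruvate dehydrogenase, cleared background on 0 control arrays and all 3 knockdown arrays, a rise of at least 1.53-fold given the same correction. It entered the test through the knockdown arrays alone, and with no filter on dim probes its adjusted p was 4.29e-05. Its deposited signal averaged 120.2 in the control samples and 160.5 after knockdown. The lower ones were PDHB, a pyruvate dehydrogenase subunit (-0.37 ± 0.10), and BRP44L, the pyruvate carrier subunit now named MPC1 (-0.37 ± 0.12).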

How the data were processed

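Gene expression was measured on 6 Illumina arrays, 3 per group. The deposited intensity values were average bead signals, linear and not normalized between arrays, per the file headers; BeadStudio is named in the submitters' processing notes. The authors' deposited log2 values of the same arrays share 1 distribution (median 6.89), with their steps not given in the sources used here, and served as an alternative. The signal was corrected with limma's normexp (offset 50), quantile normalized and put on the log2 scale. Background was estimated on each array from the mode of the log2 signal (bandwidth 0.05) and the spread below it. A probe was kept, as 20657 were, when this estimate put it above background (p under 0.05) on 3 or more of the 6 arrays, and the 15300 genes with a symbol were each represented by their brightest kept probe. Groups were compared with limma 3.58.1 (lmFit and eBayes, R 4.3.3), tested on simulated data, with Benjamini-Hochberg adjustment over all genes. A second fit over all kept probes gave the values of other probes. A bound was taken where a group was above background on no array. The alternatives were 9 changes of processing, a comparison with neighbouring genes (12285 genes placed through RefSeq GRCh38.p14) and leaving out each sample. The members and lists were chosen with earlier results of these data known. Values per array are given for HIF1A, VEGFA and up to 5 called genes per class and direction with the largest change; of the wider lists up to 3 per direction with the smallest p are named. JMJD1A, HK1 and PGAM4 were added after their values were seen.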

Additional observations from a re-analysis of the deposited data

How the results depend on the processing

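The arrays were fitted again in 15 ways. With median scaling 619 genes were higher and 3457 lower over all genes, against 2037 and 2089; without normalization the counts were 384 and 3514. Median scaling gave 7 enzymes lower, 2 HIF targets lower, 1 transporter or regulator higher and 4 of the wider set higher, and medians of -0.15 for enzymes and 0.17 for HIF targets. No normalization gave 2 enzymes higher and 7 lower, 2 HIF targets lower, 1 transporter or regulator higher and 3 of the wider set higher, with medians of -0.19 and 0.13. The HIF targets called lower were 2 without background correction and 2 with the authors' values, CA12 being the addition. The mean of a gene's probes left 1 transporter or regulator lower. Leaving out 1 sample at a time gave 9 to 16 of the wider set higher, the 9 without shCtrl replicate 3. Relative to the 50 nearest genes the enzyme median was 0.069, against -0.05. With JMJD1A counted, an alternative chosen after seeing the data, 7 of 13 HIF targets were higher, with a median of 0.43. Without genes measured in 1 group alone, also chosen after seeing the data, 5 of 11 HIF targets and 15 of 78 of the wider set were higher. Of those 78 genes, 14 were lower. Of 190 counts and medians recomputed, 168 stayed close, 21 moved and 1 reversed. Close meant counts within 1.5 times and medians within 1 SD of replicates. With a replicate block 2027 genes were higher and 2060 lower and no member's call changed; deviations of same-numbered samples correlated at 0.10, 0.05 and -0.11, so the numbers were not taken as pairs. For dim genes such as CA9 the offset shrinks the fold, and the log2 value ranged from 0.32 to 0.99. The 6 arrays lay at adjacent positions of 1 chip with each group together, so position and group cannot be told apart.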
